A study of Homo sapiens with 6 samples.

Results

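The MET, AXL and TAM receptor genes are 9 genes chosen by name: the receptor tyrosine kinases MET and MST1R, the MET ligand HGF, the protease ST14, the TAM receptors AXL, TYRO3 and MERTK, and the TAM ligands GAS6 and PROS1. All 9 were found among the 61541 genes of the table, 8 had at least 1 count, and those 8 passed the minimum mean of 1 CPM (counts scaled to a common library size). RNA sequencing was done on 6 libraries of cells labelled A498, a line derived from a human clear cell renal carcinoma. In 3 libraries the cells carried a short hairpin RNA (shRNA) against RNF26, which encodes a ubiquitin ligase of the endoplasmic reticulum membrane (the knockdown, labelled shRNF26), and in 3 they carried a control shRNA (the control, labelled shcontrol). The shRNA sequences, the number of hairpins and the time after transfer are not stated in the sources used here, and nothing says that replicates were separate cultures, so p-values measure the spread between these libraries only.

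MET is the receptor for hepatocyte growth factor (HGF), and MST1R, also called RON, is the receptor for the related macrophage-stimulating protein. Both ligands are secreted as single-chain precursors and become active when a serine protease such as matriptase, the product of ST14, cuts them. AXL, TYRO3 and MERTK are receptors for the vitamin K-dependent proteins GAS6 and protein S, which bridge them to phosphatidylserine exposed on dying cells and on vesicles. GAS6 binds each of the TAM receptors, while protein S, the product of PROS1, acts mainly through TYRO3 and MERTK. In renal carcinoma MET and AXL are known as drug targets of kinase inhibitors that also block the VEGF receptors.

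AXL was the member that changed most. It was 1.80-fold lower in the knockdown libraries. MET was 1.15-fold lower and MST1R 1.15-fold higher, and the call for MST1R was close to the threshold. TYRO3, MERTK, GAS6, PROS1 and ST14 did not pass the test, and HGF had no count in any library. Of the 8 tested members 37.5% were called at an adjusted p below 0.05, beside 41.4% of all 14766 genes tested, so the share of members called was not above that of the whole table. The 2 called lower stand beside 22.6% of all genes called lower, and the 1 called higher beside 18.9% called higher. Over the 8 members the median log2 fold change was -0.09, against 0.01 over all genes tested.

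**Figure D1:**
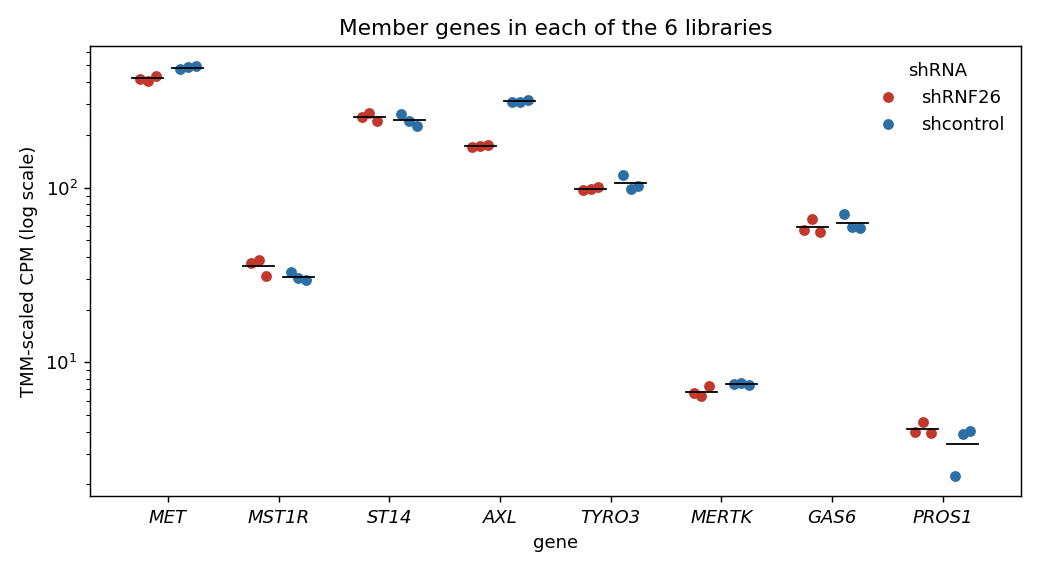
Level of the 8 detected members in each library, as TMM-scaled CPM on a log axis, with knockdown libraries (red) left of control libraries (blue) for each gene and a black line at each group mean. For AXL the knockdown libraries lie at 171 to 176 CPM and the control libraries at 310.4 to 317 CPM.

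RNF26 itself had 1216, 1274 and 1175 counts in the knockdown libraries and 35331, 31901 and 31928 in the control libraries, which left 3.48% of the control level. Its scaled mean was 68.7 CPM in the knockdown and 1972 CPM in the control. The control level was high, at 708 CPM per kilobase of exon against 69.1 for MET, the highest member. In the knockdown it was 24.6 CPM per kilobase. The cause of the high control level was not tested. The libraries held 16682871 to 18021718 gene counts. Levels below are CPM scaled by the trimmed mean of M values (TMM), and tests are edgeR quasi-likelihood tests across all genes, two-sided, with Benjamini-Hochberg adjustment. Markers of the labelled tissue were nearly absent: of 12 genes that mark renal tubule or clear cell carcinoma, 11 averaged under 1 CPM, with SLC17A3 among those at 0, and PAX8 was the exception. Their summed level was 4.48 to 5.57 CPM in the knockdown libraries and 4.75 to 6.09 CPM in the control libraries. All 6 markers of basal and squamous epithelium were above 1 CPM, but their levels differed widely. KRT5 was highest, at 623 CPM in the knockdown and 583 CPM in the control. KRT14 was lowest, at 3.09 CPM in the knockdown and 4.04 CPM in the control, not far above PAX8 at 2.12 and 2.90 CPM. The summed level of these 6 was 1256 to 1331 CPM in the knockdown libraries and 1576 to 1694 CPM in the control libraries, with KRT6A, SFN and DSG3 called lower and TP63 called higher. The part of this difference in the results below was not tested. Most markers of cells that often express TAM receptors or their ligands were near 0. Of 5 macrophage markers 4 were below 1 CPM, with CD163 at 0, and their sum was 2.45 to 2.68 CPM in the knockdown and 2.07 to 3.11 CPM in the control. Of 5 fibroblast markers all but COL1A1 were below 1 CPM, and of 4 endothelial markers all but PECAM1. COL1A1 had 84.7 CPM in the knockdown and 59.5 CPM in the control, and the sum of the 5 fibroblast markers was 81.9 to 88.6 CPM in the knockdown and 55.2 to 66.3 CPM in the control.

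AXL (ENSG00000167601) had 3040, 3201 and 3023 counts in the knockdown libraries and 5404, 5101 and 5211 in the control libraries. Scaled, these were 171, 174 and 176 CPM in the knockdown and 310.4, 311 and 317 CPM in the control. The groups did not overlap, and the gap between them was far wider than the range within either group; groups did not overlap for 50.1% of all genes tested. The mean was 174 ± 2.38 CPM in the knockdown and 313 ± 3.99 CPM in the control (SD, n = 3 each), or 55.5% of the control level. On the log2 scale the change was -0.85 (SE 0.039, 95% interval -0.93 to -0.77, edgeR adjusted p = 1.36e-12). By size of change AXL stood at place 651 of the 14766 genes, and 483 genes called lower had a larger fall. The bulk libraries cannot tell fewer AXL-expressing cells from less AXL RNA per cell. The antisense gene AC011510.1 overlaps AXL in GENCODE 29, with 3 to 9 counts in the knockdown libraries and 3 to 12 in the control libraries.

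AXL and MET were the 2 members called lower, and their promoter windows are printed here to show what lies at their annotated starts. Each window runs from 250 bases before to 50 bases after a gene start, from RefSeq on GRCh38.p14 and in the direction of the gene. The table gives AXL a window at each of 2 starts, at chr19:41218973-41219272 and chr19:41226505-41226804, and MET a window at chr7:116671946-116672245, all on the plus strand. Windows were found for 8 of the 9 members, with ST14 named only. Capitals mark matches, on either strand, to GGGCGG (the SP1 box), ACGTG (the core of the hypoxia-inducible factor site), CATTCC (TEAD), TGACTCA (AP-1) or TGACGTCA (the cyclic AMP response element).

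AXL upstream start: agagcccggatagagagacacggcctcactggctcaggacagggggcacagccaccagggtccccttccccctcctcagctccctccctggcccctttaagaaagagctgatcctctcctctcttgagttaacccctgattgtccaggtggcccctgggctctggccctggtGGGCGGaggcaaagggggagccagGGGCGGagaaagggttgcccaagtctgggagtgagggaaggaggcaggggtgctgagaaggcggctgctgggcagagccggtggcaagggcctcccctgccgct

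AXL downstream start: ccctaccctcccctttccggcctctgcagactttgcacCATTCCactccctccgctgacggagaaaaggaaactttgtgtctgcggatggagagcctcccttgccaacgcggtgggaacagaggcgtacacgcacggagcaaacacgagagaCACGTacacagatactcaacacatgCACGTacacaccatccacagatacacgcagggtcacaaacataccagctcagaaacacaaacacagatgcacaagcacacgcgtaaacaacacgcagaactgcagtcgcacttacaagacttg

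MET: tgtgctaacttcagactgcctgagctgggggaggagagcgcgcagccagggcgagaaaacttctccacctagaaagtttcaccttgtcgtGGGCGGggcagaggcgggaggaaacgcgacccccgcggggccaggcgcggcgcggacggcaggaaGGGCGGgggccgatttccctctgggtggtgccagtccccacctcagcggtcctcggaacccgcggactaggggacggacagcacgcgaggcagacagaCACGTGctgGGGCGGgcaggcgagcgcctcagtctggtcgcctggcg

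The upstream AXL window held GGGCGG at 2 places and none of the other motifs, and its GC content was 66.0%. The downstream AXL window held CATTCC at 1 place and ACGTG at 2 places on the minus strand, and its GC content was 53.7%. In the MET window GGGCGG stood at 3 places, and the palindrome CACGTG holds ACGTG on each strand, so its 2 matches overlap. No window of AXL or MET held TGACTCA or TGACGTCA. Of 35116 windows of the same length in the table, 45.0% held GGGCGG, 21.4% ACGTG, 14% CATTCC, 4.95% TGACTCA and 1.85% TGACGTCA. A match to letters is not a bound site. Gene counts do not show which AXL start was used.

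**Figure D2:**
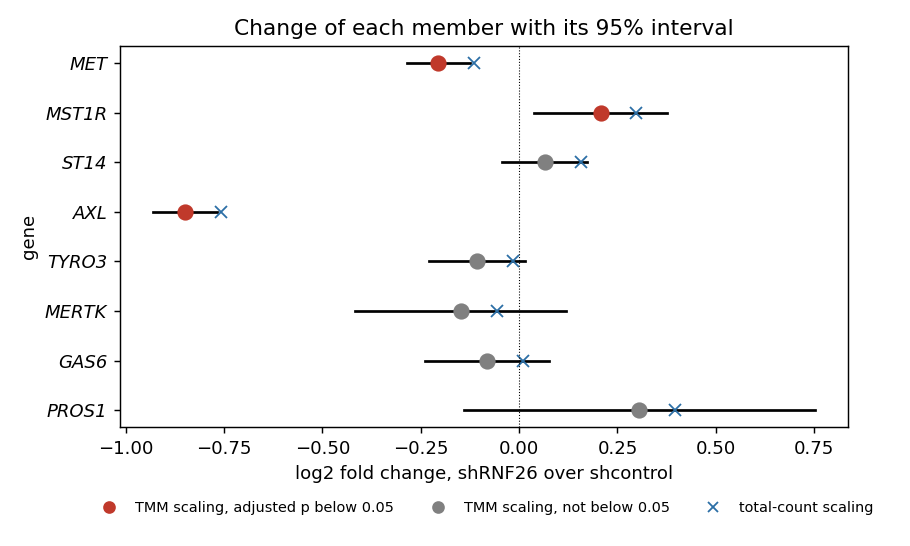
The log2 fold change of each tested member, knockdown over control, as a point with its 95% interval under TMM scaling, red where the adjusted p was below 0.05 and grey where it was not, with a cross for the value under total-count scaling. The interval of AXL, -0.93 to -0.77, lies apart from that of every other member.

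HGF, the MET ligand, had 0 counts in each of the 6 libraries. A count of 0 is compatible with up to 3 counts, which is 0.168 to 0.180 CPM of total counts in the knockdown libraries and 0.166 to 0.177 CPM in the control libraries, and this limit covers counting error only. No fold change is given. MST1, the ligand of MST1R, was at 4.58 ± 0.418 CPM in the knockdown and 4.15 ± 0.452 CPM in the control (SD, n = 3 each), and did not pass the test (edgeR adjusted p = 0.55). MST1 overlaps APEH and RNF123 on the opposite strand, with at least 453 counts for each of them in every library.

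ST14, whose protease activates both ligands, had 254, 266 and 242 CPM in the knockdown libraries and 262, 241 and 225 CPM in the control libraries, and the groups overlapped. It had a log2 fold change of 0.07 (SE 0.052, 95% interval -0.04 to 0.17, edgeR adjusted p = 0.33). With total-count scaling ST14 was called higher (0.16, edgeR adjusted p = 0.018), and likewise without control replicate 1 (0.12, edgeR adjusted p = 0.0498), while without control replicate 3 the value was 0.0082. The Kunitz inhibitors of matriptase are described with the other activating proteases below.

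MET (ENSG00000105976) had 7479, 7506 and 7499 counts in the knockdown libraries and 8261, 8046 and 8105 in the control libraries. Scaled, these were 421, 408 and 436 CPM in the knockdown and 475, 489.9 and 494 CPM in the control, with no overlap between the groups. The knockdown kept 86.8% of the control level, a log2 fold change of -0.21 (SE 0.038, 95% interval -0.28 to -0.13, edgeR adjusted p = 0.00025). With total-count scaling the call held and the value shrank to -0.11 (edgeR adjusted p = 0.019).

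MST1R (ENSG00000164078) had 37.2, 38.7 and 31.2 CPM in the knockdown libraries and 33.0, 30.2 and 29.6 CPM in the control libraries. The groups overlapped, because knockdown replicate 3 lay below control replicate 1. Its change on the log2 scale was 0.21 (SE 0.081, 95% interval 0.04 to 0.38, edgeR adjusted p = 0.047). The call was lost with DESeq2, with limma, with a lower minimum of 0.1 CPM, and without any 1 of 4 libraries, as given in the closing section. Between the receptors, MET made up 89.4%, 88.7% and 91.2% of the MET and MST1R counts per kilobase of exon in the knockdown libraries, against 91.5%, 92.4% and 92.6% in the control libraries.

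Among the TAM ligands, GAS6 was far more abundant than PROS1. GAS6 had 56.8, 65.9 and 55.4 CPM in the knockdown libraries and 70.5, 59.5 and 58.4 CPM in the control libraries, with overlap between the groups. Its log2 fold change was -0.08 (SE 0.075, 95% interval -0.24 to 0.08, edgeR adjusted p = 0.41), and its sign turned with total-count scaling (0.0093) and without control replicate 1 (0.0079). The antisense gene GAS6-AS1 overlaps it, with 84 to 110 counts in the knockdown libraries and 86 to 111 in the control libraries.

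PROS1 was close to the lowest level tested, with 71, 84 and 68 counts in the knockdown libraries and 39, 64 and 66 in the control libraries. Control replicate 1 was the low library, and the groups overlapped on the CPM scale. The log2 fold change was 0.31 with a wide interval of -0.14 to 0.75 (SE 0.21, edgeR adjusted p = 0.27), and it was 0.07 without control replicate 1. The pseudogene PROS2P had 0 counts in all 6 libraries.

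TYRO3 had 97.2, 97.6 and 100.2 CPM in the knockdown libraries and 117.6, 97.5 and 102.5 CPM in the control libraries. The groups overlapped. A log2 fold change of -0.11 did not pass (SE 0.058, 95% interval -0.23 to 0.01, edgeR adjusted p = 0.15). Without control replicate 2 it was called lower (-0.17, edgeR adjusted p = 0.048). The processed pseudogene TYRO3P had 2 to 8 counts in the knockdown libraries and 1 to 9 in the control libraries.

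MERTK had 118, 118 and 125 counts in the knockdown libraries and 131, 125 and 121 in the control libraries, or 6.77 ± 0.445 CPM against 7.50 ± 0.122 CPM (SD, n = 3 each). On the CPM scale the groups just failed to overlap, at 6.41 to 7.27 CPM in the knockdown and 7.37 to 7.61 CPM in the control. Its log2 difference of -0.15 did not pass (SE 0.13, 95% interval -0.42 to 0.12, edgeR adjusted p = 0.38). Neither TYRO3 nor MERTK had an interval that reached the fall of AXL, whose own interval ended at -0.77.

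Per kilobase of annotated exon, the place of AXL in the order of the members differed between the groups, and it depended on the length used. In the knockdown libraries MET stood first at 59.9 CPM per kb, then ST14 at 58.4, AXL at 33.7, GAS6 at 9.88, TYRO3 at 8.98, MST1R at 6.80, MERTK at 1.44 and PROS1 at 0.766 CPM per kb. In the control libraries the order was MET at 69.1 CPM per kb, AXL at 60.7, ST14 at 55.8, GAS6 at 10.5, TYRO3 at 9.67, MST1R at 5.89, MERTK at 1.60 and PROS1 at 0.622 CPM per kb. Neighbours whose libraries overlapped were MET and ST14 in the knockdown, and AXL and ST14 as well as GAS6 and TYRO3 in the control. All other neighbours in the order were apart. The length was that of all annotated exons in GENCODE 29, which understates a gene whose long forms are not made. Per kilobase of the longest coding transcript, a length added after seeing the data, the mean of AXL lay below those of MET and ST14 in both groups. ST14 then had 71.8 CPM per kb, MET 63.6 and AXL 36.7 in the knockdown, against 68.6 for ST14, 73.3 for MET and 66.0 CPM per kb for AXL in the control.

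AXL made up most of the TAM receptor transcripts in every library, and its share was lower in the knockdown. It held 76.3%, 76.6% and 76.1% of the TAM receptor counts per kilobase in the knockdown libraries, against 83.0%, 85.1% and 84.9% in the control libraries. These shares are formed within a library and do not depend on the scaling between libraries. TYRO3 held 20.4%, 20.3% and 20.4% in the knockdown libraries and 14.8%, 12.6% and 12.9% in the control libraries, and MERTK held 3.27 ± 0.178% in the knockdown and 2.22 ± 0.0635% in the control (SD, n = 3 each). The groups did not overlap for any of the 3 receptors. The 3 shares add up to the whole in each library, so a lower AXL share raises the others, and these are not separate results. Neither TYRO3 nor MERTK was called by itself, and their log2 fold changes were below 0 (-0.11 and -0.15). The two-sided exact permutation test gave p = 0.10 for each, the smallest value that 3 against 3 libraries allow, so it cannot pass a threshold of 0.05.

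**Figure D3:**
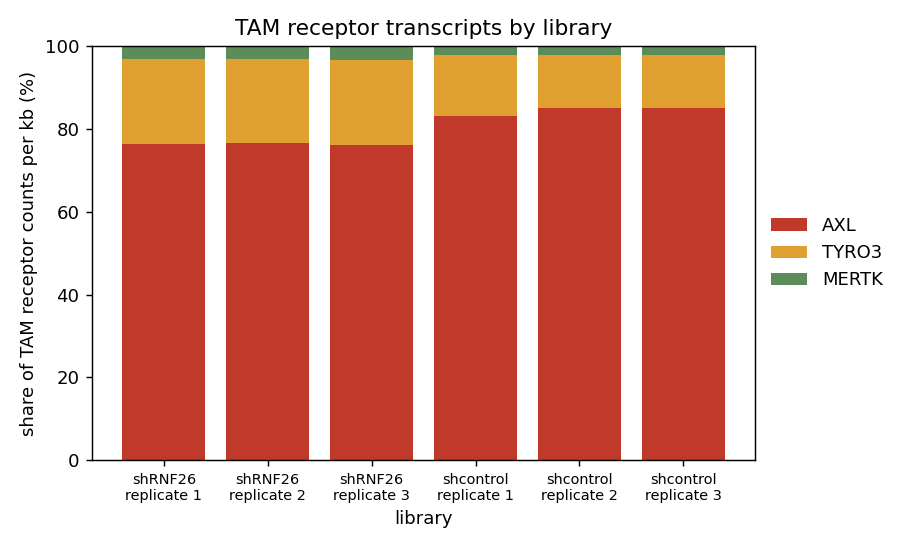
Share of AXL, TYRO3 and MERTK in the TAM receptor counts per kilobase of exon, in percent, with a stacked bar for each library, knockdown libraries left of control libraries. AXL takes 76.1% to 76.6% of each knockdown bar and 83.0% to 85.1% of each control bar.

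The level of AXL relative to MET and to its ligand moved as well. For each MET count per kilobase there were 0.555, 0.582 and 0.551 AXL counts per kilobase in the knockdown libraries and 0.893, 0.866 and 0.878 in the control libraries. For each GAS6 count per kilobase there were 3.51, 3.08 and 3.70 AXL counts per kilobase in the knockdown and 5.13, 6.08 and 6.33 in the control. With the longest coding transcript as the length the ratio to GAS6 was 1.58, 1.39 and 1.67 in the knockdown and 2.31, 2.74 and 2.86 in the control, so its level depends on the length while its fold between groups does not. In both ratios the groups were apart, with an exact permutation p of 0.10, again the smallest possible. Such ratios, 12 with the shares above, show that the transcripts changed unequally and not which of them stayed the same.

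Genes whose profile over the 6 libraries was most like that of AXL were DUSP10, KRT17 and PHLDA1. The measure was the root mean square distance between log2(CPM + 1) profiles, each centred on its own mean, over 10014 genes with a mean of at least 10 CPM, and it was 0.0224, 0.0269 and 0.0271 for these 3. DUSP10, a MAP kinase phosphatase, had 46.4 ± 1.66 CPM in the knockdown and 85.5 ± 1.59 CPM in the control. The stress keratin gene KRT17 had 285 ± 1.40 CPM in the knockdown and 511 ± 13.4 CPM in the control, and it has near-identical pseudogene copies that could share its reads. PHLDA1, an early response gene, had 391 ± 6.76 CPM in the knockdown and 686 ± 21.7 CPM in the control (SD, n = 3 each). For MET the nearest profiles were ZNF207, TOP1 and PAPOLA, at distances of 0.00887, 0.0103 and 0.0133.

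The 7 lists of genes that act with these receptors were then described by their counts and medians. They hold 70 genes, of which 63 passed the minimum level. Of these 25 were called lower and 13 higher, or 60.3% in all, beside 41.4% of all genes tested. The median log2 fold change of the 63 was -0.06, against 0.01 over all genes. The lists were chosen with earlier results of these data known, so their higher share of calls is description and not a test. For the counts of each list below, the shares over all genes tested were 22.6% called lower and 18.9% called higher.

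Among genes that activate the MET and MST1R ligands or restrain that step, 3 of the 6 tested were called lower, 0 higher and 3 missed the threshold, with a median log2 fold change of -0.09. PLAU, the urokinase plasminogen activator, which has been reported to cut the HGF precursor, had 304, 303 and 311 CPM in the knockdown libraries and 708, 715 and 714 CPM in the control libraries. These groups were far apart, and the log2 change was -1.22 (SE 0.035, edgeR adjusted p = 1.21e-15). SPINT1 and SPINT2, the Kunitz inhibitors of matriptase, fell together. SPINT1 had 211 ± 2.13 CPM in the knockdown and 273 ± 7.99 CPM in the control, and SPINT2 had 271 ± 15.9 CPM in the knockdown and 338 ± 17.2 CPM in the control (SD, n = 3 each). Their log2 fold changes were -0.37 and -0.32 (edgeR adjusted p = 4.28e-07 and 2.54e-05). The ratio of ST14 to SPINT1 counts per kilobase was 0.993, 1.02 and 0.932 in the knockdown libraries and 0.759, 0.729 and 0.687 in the control libraries. HGFAC, HPN, KLKB1 and TMPRSS13 were below the minimum level, and HPN had 0 CPM in both groups.

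Genes that limit receptor signalling included the largest fall of the 7 lists. Of 11 tested, 5 were called lower, 1 higher and 5 not, with a median of -0.08. SOCS3, a suppressor of cytokine signalling that acts downstream of TAM receptors in mouse immune cells, had 18.1 ± 0.517 CPM in the knockdown and 53.8 ± 0.894 CPM in the control (log2 change -1.57 with SE 0.066, edgeR adjusted p = 3.5e-13). Its relative SOCS1 had 9.37 ± 1.76 CPM in the knockdown and 19.8 ± 1.45 CPM in the control (-1.08 with SE 0.12, edgeR adjusted p = 5e-07). ERRFI1, a feedback inhibitor of the EGF receptor family, was 2.18-fold lower, at 89.4 ± 4.19 CPM in the knockdown and 195 ± 9.02 CPM in the control. SH3KBP1, the CIN85 adaptor that joins CBL in receptor endocytosis, was 1.77-fold lower. The ubiquitin ligase CBL fell by 0.17 on the log2 scale, while CBLB, its relative, rose by 0.29. SOCS1 overlaps RMI2 on the opposite strand, which had 215 to 280 counts in the knockdown libraries and 181 to 200 in the control libraries. CBL overlaps MCAM on the opposite strand, with 840 to 946 counts in the knockdown libraries and 940 to 1023 in the control libraries.

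All 8 tested co-receptors and partners of MET were called, 5 lower and 3 higher, with a median of -0.24. Over all genes tested 41.4% were called, 22.6% lower and 18.9% higher, and this short list was chosen with earlier results known. The hyaluronan receptor CD44, a MET co-receptor in some of its splice forms, had 502, 478 and 521 CPM in the knockdown libraries and 722, 764 and 792 CPM in the control libraries (log2 change -0.60 with SE 0.042, edgeR adjusted p = 8.44e-10). The laminin-binding integrin gene ITGA6 was 1.48-fold lower and EGFR 1.36-fold lower. PLXNB1, the semaphorin receptor plexin B1, which associates with MET, moved the other way, with 213, 219.9 and 219 CPM in the knockdown libraries and 162, 155 and 158 CPM in the control libraries (0.46 with SE 0.041, edgeR adjusted p = 3.41e-08). ERBB2 (0.34) and ERBB3 (0.24) also rose on the log2 scale, and ERBB2 overlaps PGAP3 and MIEN1 on the opposite strand. These genes therefore did not share a direction.

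Adaptors and effectors of MET changed little in size. Of 13 tested, 4 were called lower, 3 higher and 6 not, with a median of -0.06. The largest changes were in CRK (-0.38), PIK3CA (-0.27), PLCG1 (0.25) and SOS1 (0.22) on the log2 scale. GAB1, the main docking adaptor of MET, had 15.9 ± 1.57 CPM in the knockdown and 15.4 ± 0.696 CPM in the control (SD, n = 3 each) and did not pass (edgeR adjusted p = 0.74). GRB2, which links the receptors to RAS, did not pass either (-0.09, edgeR adjusted p = 0.13). The call for PIK3CA was lost with total-count scaling (-0.18, edgeR adjusted p = 0.067). PIK3CA overlaps KCNMB3 and PLCG1 overlaps ZHX3 on the opposite strand.

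MET and AXL are both shed from the cell surface by the metalloproteases ADAM10 and ADAM17, and neither protease gene passed the test (0.07 and 0.01 on the log2 scale, edgeR adjusted p = 0.18 and 0.89). Of 6 shedding genes, 4 were called lower, 0 higher and 2 not, with a median of -0.16. TIMP3, an inhibitor of both proteases, had 222, 223 and 223 CPM in the knockdown libraries and 327, 330.2 and 329.9 CPM in the control libraries (log2 change -0.56 with SE 0.037, edgeR adjusted p = 4.52e-10). TIMP1, an inhibitor of ADAM10, had 35.6 ± 2.67 CPM in the knockdown and 52.3 ± 0.420 CPM in the control (-0.56, edgeR adjusted p = 1.03e-06). RHBDF2, which takes part in the maturation of ADAM17, was at -0.16. Total-count scaling (-0.07) and upper quartile scaling (-0.11) each ended its call. It was not called either without knockdown replicate 1 (-0.16) or 2 (-0.15) and without control replicate 1 (-0.11).

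GAS6 and protein S need vitamin K-dependent carboxylation to bind phosphatidylserine. GGCX, the carboxylase, had 76.5 ± 1.55 CPM in the knockdown and 71.8 ± 0.986 CPM in the control (SD, n = 3 each) and did not pass (edgeR adjusted p = 0.15), nor did VKORC1 and VKORC1L1, which recycle vitamin K. GGCX overlaps MAT2A on the opposite strand, which had 4783 to 4999 counts in the knockdown libraries and 6561 to 6795 in the control libraries. FURIN, a proprotein convertase that also cuts the MET precursor, was the 1 called gene of the 4 in this list, at -0.12 on the log2 scale. Total-count scaling (-0.03) and upper quartile scaling (-0.06) each ended its call, as did leaving out any library but control replicate 3 (-0.12 to -0.09).

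Genes of phosphatidylserine exposure and engulfment went both ways, with 6 of 15 tested higher, 3 lower and 6 not passing, and a median of 0.05. The lipid exporter gene ABCA1 had 135 ± 1.91 CPM in the knockdown and 104 ± 4.73 CPM in the control (SD, n = 3 each), a log2 fold change of 0.38 (edgeR adjusted p = 2.66e-06). XKR8, a scramblase that exposes phosphatidylserine in dying cells, had 12.8 ± 0.718 CPM in the knockdown and 10.2 ± 0.527 CPM in the control (0.33, edgeR adjusted p = 0.016). The XKR8 call was lost without knockdown replicate 1 or control replicate 1 (0.28 each). ITGB5, an integrin subunit, fell by 0.35 and LGALS3, a galectin reported as a MERTK ligand, fell by 0.33 on the log2 scale. ELMO1 and TULP1 were below the minimum level.

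**Figure D4:**
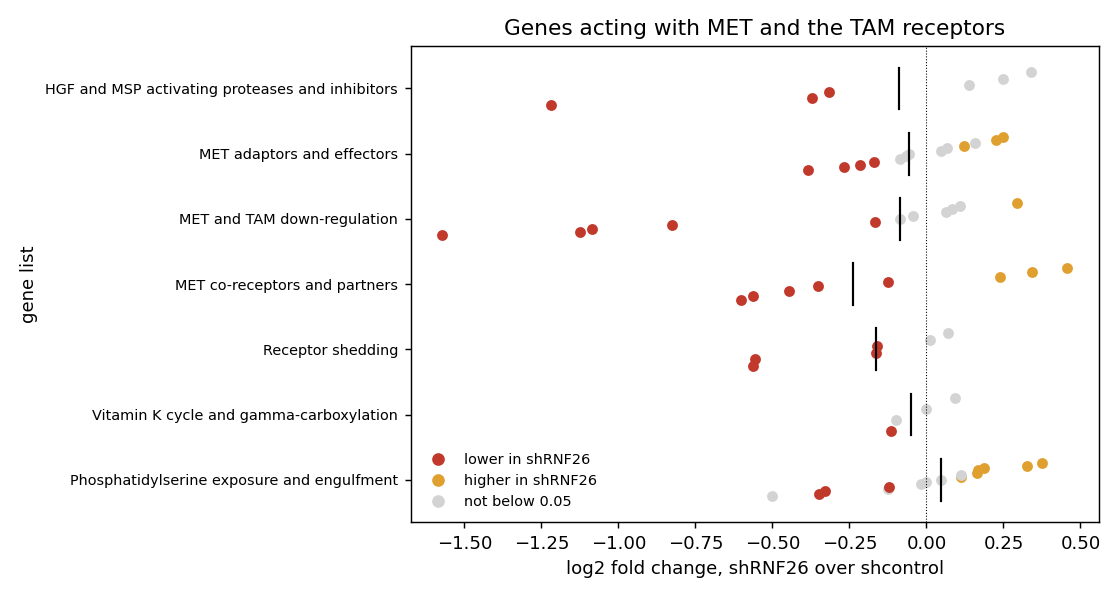
The log2 fold change, knockdown over control, of each tested gene in the 7 lists, red where called lower, orange where called higher and light grey where the adjusted p was not below 0.05, with a black bar at each list's median. The medians lie between -0.24 for the MET co-receptors and 0.05 for phosphatidylserine exposure and engulfment, and the lowest point is SOCS3 at -1.57.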

How the data were processed

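Transcripts were counted by RNA sequencing in 6 libraries, 3 labelled shRNF26 and 3 labelled shcontrol, with groups and replicate numbers from the sample titles. Per the labels, libraries were made with a directional kit. The authors deposited 1 table of raw counts for 61541 Ensembl genes. Its name refers to FPKM, but the deposited values are whole numbers with totals that differ between libraries, so they were used as counts. The 2 blank rows carry no gene ID and were left out. The build is hg19, per the submitters' processing notes, while aligner, counter, annotation and strand setting are not named in the sources used here, so overlapping antisense genes and near-identical copies may share reads.

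Gene symbols were taken from a name table (61369 IDs) or GENCODE 29 (159 IDs), which also gave exon lengths and overlaps, while promoter windows came from RefSeq. The main test was the edgeR 4.0.16 quasi-likelihood test in R 4.3.3 with TMM scaling, on 14766 genes with a mean of at least 1 CPM, which hold 99.7% of the counts, adjusted over all of them at 0.05. Standard errors are the absolute log2 change divided by the root of F. The test was also run on simulated counts as a check of the code, with 50 changed genes for each simulated fold. Far more genes were called in the real data, and no result here rests on that run. Totals were 16682871 to 18021718, so 1 count is worth 0.0555 to 0.0599 CPM. Replicates of a group differed by more than counting noise, at 2.15 to 4.28 chi-square units for each degree of freedom, and each was used as a sample. Scaled CPM is given as mean ± SD.

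The members and lists were chosen with earlier results of these data known. Named were all members, RNF26, up to 4 called genes with the largest change per list (2 by p where none was called), and the 3 nearest profiles of AXL and of MET. MST1, HGFAC, HPN, KLKB1, TMPRSS13, CBL, CBLB, ERBB2, ERBB3, GAB1, GRB2, ADAM10, ADAM17, GGCX, VKORC1, VKORC1L1, ELMO1 and TULP1 were named from the lists for their roles after their values were seen. Some genes of the lists are not reported here. Alternatives were other scalings, DESeq2 1.42.0, limma 3.58.1, a robust fit, other minimum levels, the replicate number as a block and leaving out each library. A second gene length was added after seeing the data.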

Additional observations from a re-analysis of the deposited data

How the results depend on the processing

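The falls of AXL and MET kept their direction and their call under all 16 alternatives, with log2 fold changes of -0.86 to -0.76 for AXL and -0.23 to -0.11 for MET. The count of members called was 2 to 4 against 3, the count in the 7 lists 28 to 40 against 38, and the count of all genes 4975 to 6718 against 6117. Total-count scaling raised the median over all genes to 0.10 from 0.01 and the share of higher among called genes to 66.2% from 45.5%, and upper quartile scaling raised that share to 58.3%.

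MST1R was not called with DESeq2 (0.21, adjusted p = 0.070), limma (0.20, adjusted p = 0.051) or a minimum of 0.1 CPM (0.21, edgeR adjusted p = 0.056). Leaving out 1 library gave 0.14 to 0.30 for MST1R, and the call was lost without shRNF26 replicate 1 (0.18) or 2 (0.14) and without shcontrol replicate 2 (0.19) or 3 (0.17). ST14 was called higher with total-count scaling (0.16) and without shcontrol replicate 1 (0.12), with a range of 0.0082 to 0.12 over the libraries left out. TYRO3 ranged from -0.17 to -0.028 over these, and was called lower without shcontrol replicate 2. GAS6 reversed to 0.0093 with total-count scaling and to 0.0079 without shcontrol replicate 1, with a range of -0.16 to 0.0079. PROS1 ranged from 0.07 to 0.44. With the longest coding transcript as the length, the AXL share in the knockdown libraries minus that in the control libraries was -8.90 percentage points, against -7.98 with all exons and -8.66 to -7.59 with 1 library left out. The causes were not tested.

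Of the 25 other named genes, RNF26 included, 20 kept direction and side of the threshold throughout, and the other 5, among them FURIN, RHBDF2, PIK3CA and XKR8, lost their call in at least 1 setting. With the replicate number as a block, AXL was -0.85, MET -0.21 and MST1R 0.20, and 6414 genes were called. The labels do not tie equal numbers to a shared culture or day, and deviations of libraries with equal numbers correlated at 0.01, -0.03 and 0.09, so the block was not used. PROS1, MERTK and MST1R rest on the fewest counts, which limits their precision.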
